A study of Mus musculus with 24 samples.

Results

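The genes described here, Sox1, Sox2, Sox3, Sox21, Pax6 and Hes6, encode transcription factors known from neural stem and progenitor cells. They were chosen by name, with earlier results of these data known. All 6 were found among the 49671 genes counted, and all 6 passed the filter on low counts and were among the 19691 genes tested. RNA-seq covered 24 mouse libraries in 6 groups of 4, with 27904126 to 37997368 counts per library. NSC were neural stem cells made from a single C57BL/6N embryonic stem cell line, selected for a bipolar shape and kept dividing in FGF and EGF, each at 20 ng/ml, up to passages 50 to 60. AGES were astrocytes made from these NSCs in 20 ng/ml BMP4 over 3 to 5 days. The methods name no FGF or EGF for this step, and a coating of poly-ornithine and laminin instead of gelatin. BMP4, the loss of FGF and EGF and the coating cannot be told apart. Changes given below as with BMP4 are those of AGES against NSC. Primary astrocytes came from wild-type C57BL/6J mice, which were 4 to 8 days old for neonatal (neoAC) and 100 to 140 days old for adult (AdAC) isolations. They were sorted on magnetic beads against ACSA-2, an epitope of the sodium pump subunit ATP1B2, and each isolation pooled the brains of 2 mice. Primary cells were frozen straight after sorting (direct) or grown for 7 to 10 days in a commercial astrocyte medium (CellC). The neonatal isolations used cerebral tissue without meninges, while the adult direct isolations used brain without olfactory bulb and cerebellum, and the ages were dissociated with different enzyme kits, with removal of debris and red blood cells for adult tissue, so age, dissection and dissociation cannot be told apart. The methods name the removal of olfactory bulb and cerebellum for direct isolation only. Whether it was done for adult cultures is not stated. Culture and dissection may therefore not be told apart in adult cells, nor in the interaction of culture and age. The 4 NSC and the 4 AGES libraries are cultures of 1 cell line and not animals.

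SOX1, SOX2 and SOX3 form the SOXB1 family. These proteins bind DNA through an HMG box, activate genes together with partners such as POU and PAX factors, and hold neural progenitors in an undifferentiated state, where they can partly stand in for each other. SOX21, of the SOXB2 family, binds the same sites and acts mainly as a repressor that counters SOXB1 factors. PAX6 carries a paired domain and a homeodomain and patterns the dorsal forebrain, the eye and the spinal cord. HES6 belongs to the HES family of basic helix-loop-helix proteins but acts against HES1, and it is known as a target of proneural factors. SOX2 and PAX6 are also known from radial glia and astrocytes. BMP4, the signal used to make AGES, takes neural stem cells out of the cell cycle and towards astrocytes.

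SOXB1 genes are close copies within the HMG box, and the settings stated for the counting name no option for reads with several alignments, so the most alike stretch of their coding sequences is shown here to let a reader judge whether a read of 100 bases can be told apart. The stretches are from the Gencode vM21 transcripts, 5′ to 3′, and capitals mark the positions at which the 3 genes differ.
Sox1, coding bases 151 to 250: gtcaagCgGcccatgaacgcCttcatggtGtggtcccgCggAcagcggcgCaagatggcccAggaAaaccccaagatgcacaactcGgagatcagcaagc
Sox2, coding bases 127 to 226: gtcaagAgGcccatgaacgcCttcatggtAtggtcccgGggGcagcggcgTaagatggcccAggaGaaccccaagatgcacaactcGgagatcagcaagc
Sox3, coding bases 430 to 529: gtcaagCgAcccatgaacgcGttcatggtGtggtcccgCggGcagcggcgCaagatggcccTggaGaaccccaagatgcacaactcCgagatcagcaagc
Of these 100 bases, 90 are shared by all 3 genes. Sox1 differs from Sox2 at 6 positions and Sox3 differs from Sox2 at 8. The longest run of identical bases between any pair of the 4 SOX genes described here is 45, between the coding sequences of Sox1 and Sox3. No coding window of 100 bases is therefore identical between 2 of them, and the closest pairs reached 94 identical bases.

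In the GRCm38 annotation the SOX genes each consist of 1 exon. Sox1 lies at chr8:12395295-12400126 on the plus strand, Sox2 at chr3:34650405-34652461 on the plus strand, Sox3 at chrX:60891366-60893430 on the minus strand and Sox21 at chr14:118233232-118237030 on the minus strand. Pax6 spans chr2:105668900-105697364 on the plus strand, and Hes6 spans chr1:91411483-91414038 on the minus strand. Sox1 and Sox2 each sit inside a longer noncoding gene of the same strand, Sox1ot and Sox2ot, without sharing an exon base with it. Sox1 does share 86 exon bases with the miRNA gene Gm25239 on the same strand, which had 0 counts in every group. Sox1 reads over those bases may have been left out. Sox21 shares 713 exon bases with the antisense noncoding RNA Gm4675, and whether the counting used the strand is not stated. Reads over the shared bases may have been left out for both genes, so the Sox21 level is uncertain there. Gm4675 itself held at most 116 counts in any library, which does not bound the number of reads left out.

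Marker genes were read in the NSC libraries as a description, and the NSC markers do not single out this group. Levels below are CPM (read counts scaled to a common library size, with TMM factors), given as mean ± SD over 4 libraries, and 3 counts correspond to 0.0786 to 0.117 CPM. Of the NSC markers, Nes (nestin) was at 1398 ± 142.5 CPM in NSC and the radial glial lipid-binding gene Fabp7 at 805.8 ± 157.1 CPM, while Prom1, the gene of the stem cell surface protein prominin, was at 0.151 ± 0.0668 CPM. The 6 NSC markers summed to 4047 to 4546 CPM in NSC and to 765 to 798 CPM in AdAC direct. Every other group had a higher sum than NSC, up to 7202 to 12462 CPM in AGES. Of 10 pluripotency genes, which summed to 16.2 to 21.0 CPM in NSC, Pou5f1 and Zfp42 had no counts in any NSC library, while Klf4 was at 9.70 ± 1.58 CPM and Esrrb at 7.47 ± 0.655 CPM. Only Sox3 and Hes6 had their highest mean in NSC. Sox1, Sox2 and Sox21 were highest in neoAC direct and Pax6 in AGES, so the 6 genes did not mark the NSC libraries as a set.

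**Figure D1:**
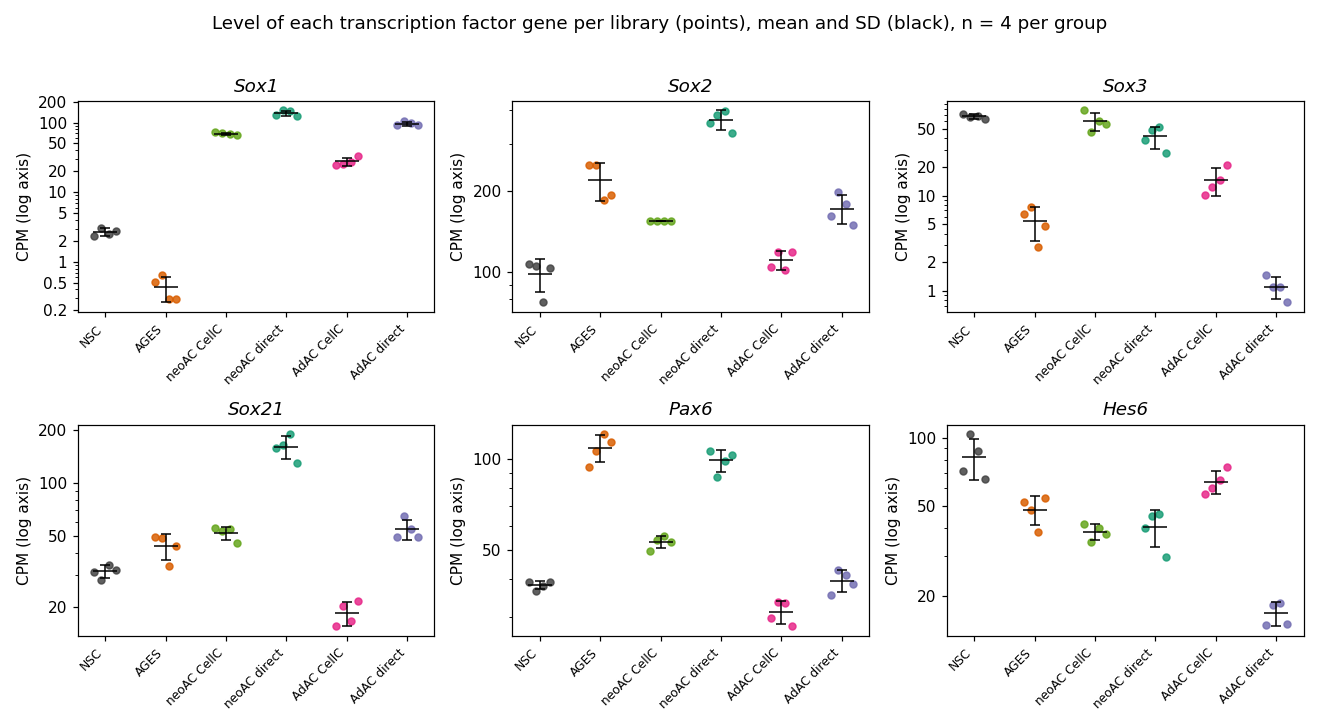
Level in CPM (log axis, with its own range in each panel) of the 6 genes in each of 24 libraries, with the mean as a black dash and the SD as a bar (n = 4 per group). Sox1 reaches at most 3.10 CPM in the NSC and AGES libraries and at least 24.8 CPM in the primary libraries, while Sox3 lies lowest in AdAC direct.

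Sox1, a marker of the neural plate, was low in the stem cell line. Its level was 2.35, 3.10, 2.48 and 2.81 CPM in the 4 NSC libraries. AGES held 0.507, 0.638, 0.288 and 0.296 CPM, which rest on 9 to 22 counts per library. All 4 AGES libraries were below all 4 NSC libraries (log2 fold change -2.62, SE 0.19, adjusted p = 3.47e-12; edgeR quasi-likelihood test, Benjamini-Hochberg adjustment over 19691 genes, here and below).

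Sox1 was present in every library of the primary groups, but bulk RNA does not show which cells held it. It stood at 126.5, 148.9, 144.3 and 123.9 CPM in neoAC direct and at 91.8, 105.1, 97.8 and 90.7 CPM in AdAC direct. After culture the neonatal libraries held 72.5, 69.8, 68.5 and 66.5 CPM and the adult libraries 24.8, 25.7, 27.1 and 33.0 CPM. No 2 of the 6 groups overlapped, and the order from neoAC direct over AdAC direct, neoAC CellC, AdAC CellC and NSC to AGES was separated at every step, with the smallest step between AdAC direct and neoAC CellC (0.48 on the log2 scale, SE 0.10, adjusted p = 0.000165). Sox1 was 25.8-fold lower in NSC than in neoAC CellC (log2 fold change -4.69, SE 0.13, adjusted p = 4.45e-21).

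Sox2, the family member shared by stem cells and glia, was present in every library. NSC held 107.4, 105.4, 77.5 and 103.6 CPM and AGES 251.3, 249.5, 185.0 and 193.2 CPM. Each AGES library was above each NSC library, and Sox2 rose 2.23-fold with BMP4 (log2 fold change 1.16, SE 0.11, adjusted p = 8.88e-10). The third NSC library, at 77.5 CPM, stood apart from the other three.

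Among the primary groups Sox2 was highest in neoAC direct, at 360.0, 384.9, 398.7 and 328.2 CPM. AdAC direct held 162.1, 198.4, 179.3 and 150.2 CPM. The cultured groups held 155.8, 155.8, 155.4 and 155.2 CPM for neonatal and 104.8, 118.9, 102.6 and 118.7 CPM for adult cells. In the order of levels 2 pairs of neighbours did not pass the test: AdAC direct and neoAC CellC (log2 difference 0.15, SE 0.11, adjusted p = 0.221), and AdAC CellC and NSC (0.18, SE 0.11, adjusted p = 0.148). The 95% interval of neoAC CellC minus AdAC direct ran from -0.36 to 0.066 on the log2 scale, and that of NSC minus AdAC CellC from -0.39 to 0.040. AGES and AdAC direct overlapped in their libraries although the difference passed the test (0.35, SE 0.11, adjusted p = 0.00547). It was lost without replicate 1 (0.25, adjusted p = 0.103), with scaling by library size only (0.21, adjusted p = 0.0873) and with at least 10 counts demanded in every library (0.22, adjusted p = 0.0713).

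Sox3 had the widest range of means after Sox1, and its highest mean was in NSC. Its level was 72.0, 66.9, 67.5 and 63.6 CPM in NSC. In AGES it was 6.48, 7.63, 2.88 and 4.77 CPM, with no overlap, a 12.4-fold fall (log2 fold change -3.63, SE 0.26, adjusted p = 1.94e-11). In neonatal astrocytes it stood at 37.9, 48.8, 52.4 and 27.9 CPM in neoAC direct and 77.8, 46.2, 60.8 and 56.3 CPM in neoAC CellC.

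The adult groups had little Sox3. AdAC CellC held 10.2, 12.3, 14.5 and 21.1 CPM. AdAC direct held 1.45, 1.11, 1.10 and 0.762 CPM, from 27 to 41 counts per library, the lowest of all groups. NSC and neoAC CellC did not pass the test (log2 difference 0.16, SE 0.23, adjusted p = 0.512, 95% interval -0.28 to 0.61) and their libraries overlapped. NSC and AdAC direct lay 61.5-fold apart (log2 fold change 5.94, SE 0.31, adjusted p = 1.91e-14).

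Sox21 was lowest in cultured adult cells and highest in neoAC direct. NSC held 31.5, 28.3, 34.5 and 32.3 CPM and AGES 49.5, 48.6, 33.8 and 44.3 CPM. The third AGES library, at 33.8 CPM, lay within the NSC range, so the groups overlapped, while the difference passed the test (log2 fold change 0.48, SE 0.13, adjusted p = 0.0018). Antisense Gm4675 was at 1.36 ± 0.273 CPM in NSC and 1.94 ± 0.635 CPM in AGES.

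In the primary groups Sox21 was at 157.4, 163.0, 188.6 and 130.4 CPM in neoAC direct and at 49.5, 64.9, 55.1 and 49.7 CPM in AdAC direct. Cultured cells held 55.3, 53.2, 54.6 and 45.8 CPM at the neonatal age and 15.5, 20.2, 16.5 and 21.6 CPM at the adult age. Both cultured groups were below their directly isolated counterpart in every library. In the order of levels, AdAC direct and neoAC CellC (0.069 on the log2 scale, SE 0.12, adjusted p = 0.627) and neoAC CellC and AGES (0.25, SE 0.13, adjusted p = 0.0799) did not pass the test. The 95% intervals were -0.31 to 0.18 for neoAC CellC minus AdAC direct and -0.49 to 0.00041 for AGES minus neoAC CellC.

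Pax6 had the narrowest range of group means of the 6 genes, as a ratio of highest to lowest, and it was the only one with its highest mean in AGES. It was at 39.0, 36.5, 38.0 and 39.0 CPM in NSC and at 94.2, 105.8, 120.5 and 113.4 CPM in AGES. The groups lay apart, and the change was 2.84-fold (log2 fold change 1.51, SE 0.084, adjusted p = 2.30e-14). NeoAC direct, at 106.3, 87.2, 98.3 and 103.2 CPM, overlapped AGES, and the difference did not pass the test (log2 difference 0.14, SE 0.082, adjusted p = 0.137, 95% interval of AGES minus neoAC direct -0.024 to 0.30), but it passed without replicate 1 (0.23, adjusted p = 0.0306).

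NeoAC CellC held 49.5, 53.9, 55.6 and 53.2 CPM of Pax6. AdAC direct held 35.4, 42.9, 41.2 and 38.5 CPM and AdAC CellC 29.8, 33.5, 33.3 and 28.0 CPM. The adult groups lay below the neonatal groups in every library, and AdAC direct overlapped NSC (log2 difference 0.053, SE 0.083, adjusted p = 0.557, 95% interval of NSC minus AdAC direct -0.22 to 0.11). The last difference passed, with NSC lower, under DESeq2 (-0.19, adjusted p = 0.0403) and with at least 10 counts demanded in every library (-0.29, adjusted p = 0.00224).

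Hes6, the one member outside the SOX and PAX families, had the largest spread between NSC libraries relative to its mean, at 71.2, 103.7, 87.5 and 65.9 CPM. AGES held 52.1, 47.8, 38.6 and 54.5 CPM, all below the NSC libraries (log2 fold change -0.77, SE 0.14, adjusted p = 3.30e-05). AdAC CellC came next to NSC, at 56.8, 59.8, 65.0 and 74.4 CPM, and overlapped it (log2 difference 0.36, SE 0.14, adjusted p = 0.0229). That difference lost its call, among others, with scaling by library size only (0.21, adjusted p = 0.15), with DESeq2 (0.31, adjusted p = 0.0657) and without replicate 2 (0.19, adjusted p = 0.27).

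The neonatal groups overlapped in Hes6, with 41.8, 34.7, 39.9 and 37.5 CPM in neoAC CellC and 40.0, 45.3, 46.3 and 29.9 CPM in neoAC direct. AdAC direct was the lowest group, at 15.0, 18.3, 18.8 and 15.2 CPM, below every library of every other group. In the order of levels, AGES and neoAC direct (0.26 on the log2 scale, SE 0.14, adjusted p = 0.106) and neoAC direct and neoAC CellC (0.070, SE 0.14, adjusted p = 0.682) did not pass the test. AGES against neoAC direct passed without replicate 3 (0.42, adjusted p = 0.0302). The 95% intervals were -0.021 to 0.53 for AGES minus neoAC direct and -0.35 to 0.21 for neoAC CellC minus neoAC direct.

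The first of 2 Hes6 start sites is shown because it carries E-boxes, the motif CANNTG bound by proneural factors and other basic helix-loop-helix proteins. This RefSeq window of GRCm38.p6 holds the 250 bases before the start, read from the minus strand at chr1:91414039-91414288, with the E-boxes in capitals.
Hes6: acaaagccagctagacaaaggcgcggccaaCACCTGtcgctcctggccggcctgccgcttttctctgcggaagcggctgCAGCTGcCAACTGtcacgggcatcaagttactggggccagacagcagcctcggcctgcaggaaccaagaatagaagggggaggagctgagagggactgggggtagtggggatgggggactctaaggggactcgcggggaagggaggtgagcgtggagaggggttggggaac
The window has 3 E-boxes on either strand, and 66.2% of 32841 RefSeq promoter windows of this length have at least 1. Neither this window nor those of Sox2 (chr3:34649745-34649994), Sox21 (chr14:118237031-118237280) and the first Pax6 start (chr2:105668646-105668895) held the other motifs searched on both strands, which were CATTGT (a SOX site, in 10.7% of windows), TGGGAA (an RBPJ site, 21.6%), GGCGCC (a GC-rich SMAD site, 9.59%) and TATAAA (12.4%). The window of the second Hes6 start (chr1:91413223-91413472) held 1 E-box and 1 TATAAA. A match or its absence in 250 bases is a description of these letters.

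With BMP4, the question of the AGES against NSC comparison, the 6 genes split: Sox2, Sox21 and Pax6 rose, and Sox1, Sox3 and Hes6 fell. Of all genes tested, 31.7% were higher and 34.0% lower in AGES than in NSC, so that a gene called in 1 direction or the other is common in this comparison. The median log2 fold change was -0.14 over the 6 genes and 0 over all genes. In bulk RNA, fewer cells with a transcript and less transcript per cell cannot be told apart, here and below. All 19 proliferation genes were lower in AGES, and their summed level went from between 5871 and 6606 CPM in NSC to between 124 and 132 CPM in AGES. The part of this shift in the fall of Sox3 and Hes6 was not tested.

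**Figure D2:**
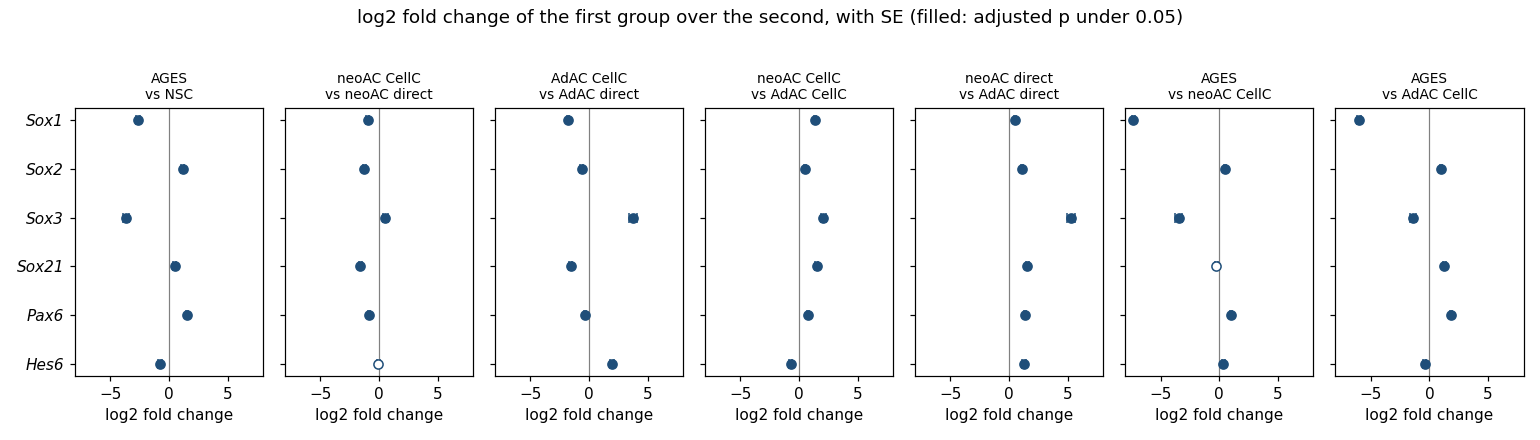
log2 fold change (first group over second) of the 6 genes in the 7 study comparisons, with SE as bars that are mostly smaller than the points (filled points passed an adjusted p of 0.05, n = 4 per group). Sox1 and Sox3 lie left of 0 in all 3 comparisons of AGES, and all 6 genes lie right of 0 in neoAC direct against AdAC direct.

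In cultured adult astrocytes, compared with direct isolation, 4 of the 6 genes were lower and the other two higher, in a comparison in which 38.8% of all genes were higher and 39.2% lower in culture. Sox1 fell 3.49-fold (log2 fold change -1.80, SE 0.10, adjusted p = 4.18e-14) and Sox21 2.97-fold (log2 fold change -1.57, SE 0.13, adjusted p = 4.16e-11). Sox2 (log2 fold change -0.63, SE 0.11, adjusted p = 1.21e-05) and Pax6 (log2 fold change -0.34, SE 0.084, adjusted p = 0.000608) fell less. Sox3 rose 13.2-fold (log2 fold change 3.72, SE 0.31, adjusted p = 1.51e-10) and Hes6 3.81-fold (log2 fold change 1.93, SE 0.15, adjusted p = 1.00e-11). The libraries did not overlap for any of the 6, but the share of all genes without overlap was not counted. All 19 proliferation genes were also higher in culture, with summed levels of 1814 to 2172 CPM against 120 to 133 CPM. Summed levels of 8 oligodendrocyte lineage markers went the other way, from between 24749 and 27128 CPM in AdAC direct to between 3890 and 9752 CPM in AdAC CellC. All 5 ependymal markers were lower in culture too, with sums of 231 to 334 CPM against 1177 to 1285 CPM. The part of these lists in the changes of the 6 genes was not tested.

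In cultured neonatal astrocytes 4 of the 6 genes were lower than after direct isolation and 1 was higher, where 34.4% of all genes were higher and 31.3% lower (6766 and 6170 genes, and 8628 and 4468 with scaling by library size only). Sox21 fell 3.06-fold (log2 fold change -1.61, SE 0.13, adjusted p = 3.51e-11) and Sox2 2.37-fold (log2 fold change -1.24, SE 0.11, adjusted p = 3.85e-10). Sox1 (log2 fold change -0.97, SE 0.10, adjusted p = 6.11e-09) and Pax6 (log2 fold change -0.90, SE 0.083, adjusted p = 6.87e-10) fell by less than a log2 unit. For Sox3 the difference was at the threshold (log2 fold change 0.53, SE 0.23, adjusted p = 0.0479), the libraries overlapped, and the call was lost without replicate 1 (0.34, adjusted p = 0.284), without replicate 4 (0.41, adjusted p = 0.143), without the filter on low counts (0.47, adjusted p = 0.16) and by DESeq2 (0.54, adjusted p = 0.054). Hes6 did not pass the test (log2 fold change -0.070, SE 0.14, adjusted p = 0.682). Of the proliferation genes, 17 of 19 were higher in culture, and the 5 ependymal markers were all higher, with summed levels of 1485 to 1893 CPM against 133 to 212 CPM. Their part in these changes was not tested.

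The change in culture differed between the ages for 5 of the 6 genes in a test of the interaction, in which 68.6% of all genes passed. Given as the neonatal minus the adult change on the log2 scale, it was 0.83 for Sox1 (SE 0.14, adjusted p = 1.52e-05), so Sox1 fell more in adult cells. It was -0.61 for Sox2 (SE 0.16, adjusted p = 0.00125) and -0.55 for Pax6 (SE 0.12, adjusted p = 0.000197), which fell more in neonatal cells. It was -3.20 for Sox3 (SE 0.39, adjusted p = 1.5e-07) and -1.998 for Hes6 (SE 0.20, adjusted p = 3.84e-09), which rose in adult culture. Sox21 did not pass the test, at -0.043 (SE 0.18, adjusted p = 0.845, 95% interval -0.39 to 0.31).

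All 6 genes were higher in neoAC direct than in AdAC direct, where 35.0% of all genes were higher and 36.4% lower. The difference was 38.0-fold for Sox3 (log2 fold change 5.25, SE 0.31, adjusted p = 5.37e-13). It was 2.92-fold for Sox21 (log2 fold change 1.54, SE 0.13, adjusted p = 5.42e-11), 2.50-fold for Pax6 (log2 fold change 1.32, SE 0.084, adjusted p = 3.61e-13) and 2.40-fold for Hes6 (log2 fold change 1.26, SE 0.15, adjusted p = 2.87e-08). Sox2 differed 2.13-fold (log2 fold change 1.09, SE 0.11, adjusted p = 2.72e-09) and Sox1 1.41-fold (log2 fold change 0.50, SE 0.10, adjusted p = 0.000102). No libraries overlapped for any of the 6 genes, but the share of all genes without overlap was not counted. All 19 proliferation genes were higher in neoAC direct, at a sum of 668 to 1034 CPM. Oligodendrocyte lineage markers summed to 370 to 488 CPM in neoAC direct against at least 24749 CPM in AdAC direct. The 5 ependymal markers were all lower in neoAC direct, at 133 to 212 against 1177 to 1285 CPM, and 5 of 6 endothelial and mural markers were higher, at 285 to 710 against 253 to 280 CPM. The part of these lists in the differences was not tested.

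Between the cultured groups, 5 of the 6 genes were higher in neoAC CellC than in AdAC CellC and Hes6 was lower, where 28.5% of all genes were higher and 35.2% lower. Sox3 differed 4.15-fold (log2 fold change 2.05, SE 0.24, adjusted p = 1.18e-07), Sox21 2.83-fold (log2 fold change 1.50, SE 0.13, adjusted p = 2.64e-10) and Sox1 2.51-fold (log2 fold change 1.33, SE 0.10, adjusted p = 4.20e-11). Pax6 (log2 fold change 0.77, SE 0.083, adjusted p = 1.50e-08) and Sox2 (log2 fold change 0.48, SE 0.11, adjusted p = 0.000452) differed by less than a log2 unit. Hes6 was 1.66-fold lower (log2 fold change -0.73, SE 0.14, adjusted p = 7.06e-05). Of the proliferation genes 10 of 19 were lower and 2 higher in neoAC CellC, and Foxj1, the master regulator of motile cilia, stood at 208.7 ± 36.4 CPM in the adult cultures and at 1241 ± 120.7 CPM in the neonatal ones. Oligodendrocyte lineage markers were lower in neoAC CellC for 6 of 8, with sums of 323 to 435 against 3890 to 9752 CPM, and all 10 astrocyte markers were higher, with sums of 6551 to 7630 against 907 to 1387 CPM. Endothelial and mural markers were lower for 5 of 6, at 83.6 to 125.7 against 161 to 197 CPM. The part of these lists in the differences was not tested.

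AGES were set against the cultured primary astrocytes as the other models of astrocytes in a dish. Against neoAC CellC, 3 genes were higher, 2 lower and Sox21 did not pass the test, where 34.1% of all genes were higher and 40.5% lower (6710 and 7977 genes, and 4504 and 9822 with scaling by library size only). Sox1 was 158.0-fold lower (log2 fold change -7.30, SE 0.16, adjusted p = 8.94e-23) and Sox3 11.1-fold lower (log2 fold change -3.47, SE 0.26, adjusted p = 3.38e-11). Pax6 was higher (log2 fold change 1.03, SE 0.083, adjusted p = 2.52e-11), and Sox2 was higher (log2 fold change 0.50, SE 0.11, adjusted p = 0.000237) but lost its call when only library size was used for scaling (0.20, adjusted p = 0.112). Hes6 overlapped between the groups (log2 fold change 0.33, SE 0.14, adjusted p = 0.0405) and lost its call without replicate 1 (0.33, adjusted p = 0.0994), without replicate 2 (0.28, adjusted p = 0.115), without replicate 4 (0.26, adjusted p = 0.0907), with DESeq2 (0.26, adjusted p = 0.133) and under both other scalings.

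Against AdAC CellC, 3 of the 6 genes were higher in AGES and 3 lower, where 31.0% of all genes were higher and 45.2% lower. Pax6 was 3.48-fold higher (log2 fold change 1.80, SE 0.085, adjusted p = 4.62e-16), Sox21 2.39-fold higher (log2 fold change 1.26, SE 0.13, adjusted p = 2.60e-09) and Sox2 1.98-fold higher (log2 fold change 0.98, SE 0.11, adjusted p = 1.31e-08). Sox1 was 63.0-fold lower (log2 fold change -5.98, SE 0.16, adjusted p = 5.74e-21) and Sox3 2.67-fold lower (log2 fold change -1.41, SE 0.26, adjusted p = 2.90e-05). Hes6 was 1.33-fold lower (log2 fold change -0.41, SE 0.14, adjusted p = 0.0113), and it lost its call without replicate 3 (-0.31, adjusted p = 0.103) and without the filter on low counts (-0.29, adjusted p = 0.0952). These comparisons share the AGES libraries with that against NSC, so their values stand side by side and are not independent of each other.

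NSC were also set against the primary groups. Of the 6 genes, NSC had Hes6 higher and 4 lower than neoAC CellC (39.0% of all genes higher, 41.6% lower), and 2 higher and 4 lower than neoAC direct (37.5% and 42.5%). Against AdAC CellC 4 were higher and 1 lower (35.8% and 41.5%), and against AdAC direct 2 were higher and 3 lower (38.3% and 47.9%). Sox3 and Hes6 were the 2 genes higher in NSC than in both directly isolated groups. In AGES 0 of the 6 genes were higher and 4 lower than in neoAC direct. There 6436 of all genes were higher and 8097 lower (73.8% called in either direction). Against AdAC direct 4 were higher and 2 lower in AGES, where 7011 of all genes were higher and 8814 lower (80.4%). Of these, Sox21 lost its call without replicate 2 (-0.27, adjusted p = 0.0941) and without replicate 3 (-0.20, adjusted p = 0.159). AdAC CellC had Hes6 higher and the other 5 lower than neoAC direct, where 7876 of all genes were higher and 6040 lower (70.7%). NeoAC CellC had 3 higher (Sox3, Pax6 and Hes6) and Sox1 lower than AdAC direct, where 7260 were higher and 7308 lower (74.0%).

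The makeup of the SOXB1 family was read from CPM per kilobase of exon, which allows levels to be compared between genes, and it is given as each gene's percent of the 3-gene sum in a library, without a test. In NSC, Sox2 made up 58.8% ± 3.83 (mean ± SD, n = 4), Sox3 40.5% ± 3.82 and Sox1 0.688% ± 0.0910. In AGES, Sox2 made up 97.6% ± 0.611, leaving 2.35% ± 0.596 for Sox3. The sum itself was 81.1 ± 7.23 CPM per kilobase in NSC and 109.6 ± 18.2 in AGES.

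In the primary groups Sox1 held a larger share than in NSC and AGES, at 12.4% ± 0.509 in neoAC direct, 12.1% ± 0.526 in neoAC CellC, 8.55% ± 0.654 in AdAC CellC and 19.2% ± 0.881 in AdAC direct. The Sox3 share was 24.3% ± 3.91 in neoAC CellC against 8.78% ± 1.53 in neoAC direct. In adult cells it was 10.4% ± 2.57 in culture against 0.516% ± 0.138 after direct isolation. The sum per kilobase was highest in neoAC direct, at 227.2 ± 22.8, and lowest in AdAC CellC, at 66.8 ± 6.34.

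**Figure D3:**
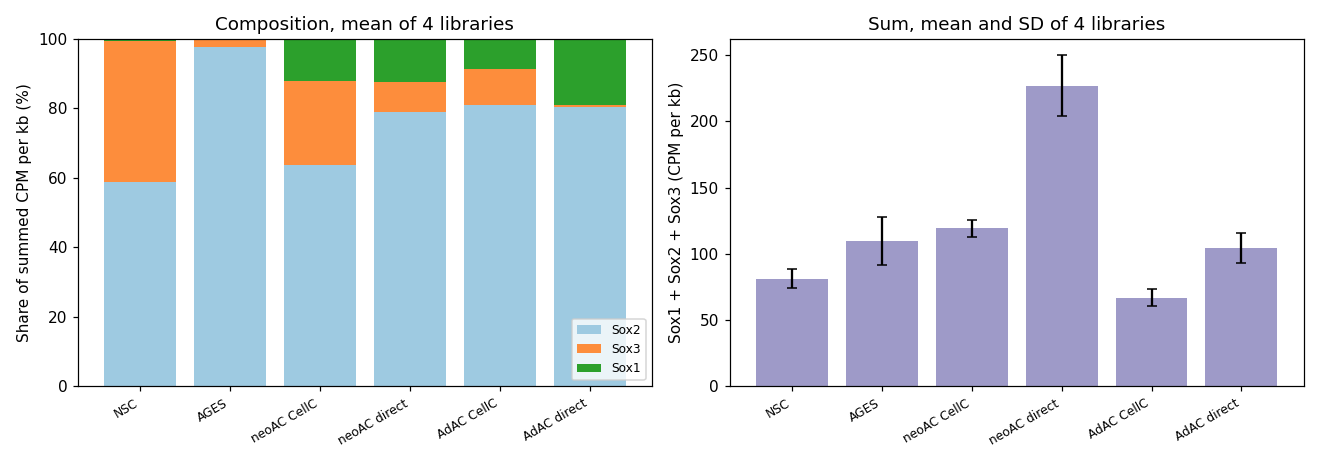
Left, share of Sox1, Sox2 and Sox3 in their summed CPM per kilobase, as the mean percent of 4 libraries per group. Right, the sum in CPM per kilobase with the SD as bars. Sox2 takes 58.8% in NSC and 97.6% in AGES, and Sox1 is visible only in the 4 primary groups.

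The noncoding genes around Sox1 and Sox2 were looked at after their values were seen. Sox1ot was at 0.158 ± 0.0643 CPM in NSC and 4.38 ± 3.95 CPM in AGES, a difference in the opposite direction to that of Sox1 (log2 fold change 4.75, SE 0.68, adjusted p = 2.31e-06), with an SD near the mean in AGES. In the primary groups it ran from 4.07 ± 0.999 CPM in AdAC CellC to 90.9 ± 2.10 CPM in neoAC direct. Sox2ot was highest in AdAC direct, at 273.3 ± 25.6 CPM, where Sox2 itself was not, and lowest in NSC, at 2.51 ± 0.223 CPM. It rose with BMP4 like Sox2 (log2 fold change 1.50, SE 0.18, adjusted p = 5.03e-08).

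Of 13 other SOX genes tested, 3 were higher (Sox4, Sox6 and Sox9) and 5 lower (Sox5, Sox8, Sox11, Sox12 and Sox13) in AGES than in NSC. Sox9, a regulator of glial fate, rose (log2 fold change 1.79, SE 0.12, adjusted p = 8.59e-13), while Sox8, of the same SOXE family (log2 fold change -2.70, SE 0.17, adjusted p = 3.31e-13), and Sox11, a SOXC gene of young neurons and progenitors (log2 fold change -1.99, SE 0.10, adjusted p = 3.21e-15), fell. In adult culture 3 were higher, Sox7 among them, and 7 lower, with the SOXC genes Sox4 (log2 fold change 2.64, SE 0.12, adjusted p = 4.12e-16) and Sox11 (log2 fold change 1.92, SE 0.10, adjusted p = 1.21e-14) higher and the SOXD gene Sox5 (log2 fold change -2.12, SE 0.098, adjusted p = 4.94e-16) lower. In neonatal culture 2 were higher (Sox6 and Sox10) and 10 lower, among them the endothelial factor Sox7 (log2 fold change -3.92, SE 0.36, adjusted p = 1.33e-09), with endothelial and mural markers at a sum of 285 to 710 CPM in neoAC direct against 83.6 to 125.7 CPM in culture. Sox5 (log2 fold change -2.21, SE 0.094, adjusted p = 3.76e-16) and Sox13 (log2 fold change -1.56, SE 0.15, adjusted p = 8.65e-10), both SOXD genes, were also lower.

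Of 28 other stem and progenitor transcription factors tested, 6 were higher and 13 lower in AGES than in NSC, with a median log2 fold change of -0.39. Olig2, the oligodendrocyte and motor neuron progenitor factor, fell (log2 fold change -3.81, SE 0.25, adjusted p = 2.66e-12), as did the chromatin protein gene Hmga2 (log2 fold change -3.24, SE 0.32, adjusted p = 4.27e-09) and Insm1, a factor of neurogenic progenitors, which was at 5.94 ± 2.51 CPM in NSC and on average under the level of 3 counts in AGES, at 0.0555 ± 0.0713 CPM. In adult culture 6 were higher and 15 lower, with Hmga2 at 87.0 ± 8.67 CPM in culture and at 0.0462 ± 0.0169 CPM, under the level of 3 counts, after direct isolation, and with the progenitor homeobox gene Dbx2 (log2 fold change -3.43, SE 0.14, adjusted p = 4.44e-17) and the hedgehog effector Gli2 (log2 fold change -2.54, SE 0.15, adjusted p = 3.34e-14) lower. In neonatal culture 5 were higher (Hmga2, Insm1, Six3, Irx3 and Irx5) and 15 lower, with the cortical homeobox gene Emx2 (log2 fold change -2.05, SE 0.11, adjusted p = 4.47e-14) and Dbx2 (log2 fold change -1.90, SE 0.13, adjusted p = 1.94e-12) lower and Insm1 higher (log2 fold change 1.84, SE 0.27, adjusted p = 1.86e-06). In this list 17 were higher and 6 lower in neoAC CellC than in AdAC CellC, 16 and 4 in neoAC direct against AdAC direct, 4 and 20 in AGES against neoAC CellC, and 8 and 17 in AGES against AdAC CellC.

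A pair of genes of that list was picked after their values were seen. Like Sox1, Nr2e1 was lower in NSC and AGES than in every primary group. Nr2e1, the orphan receptor TLX that maintains adult neural stem cells, was at 1.52 ± 0.493 CPM in NSC and 0.330 ± 0.101 CPM in AGES against 19.1 ± 4.26 CPM in AdAC CellC, the lowest primary group. Pax7, a factor of the dorsal midbrain and spinal cord, had the reverse pattern, at 32.4 ± 3.77 CPM in NSC and at most 0.652 ± 0.306 CPM in a primary group.

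**Figure D4:**
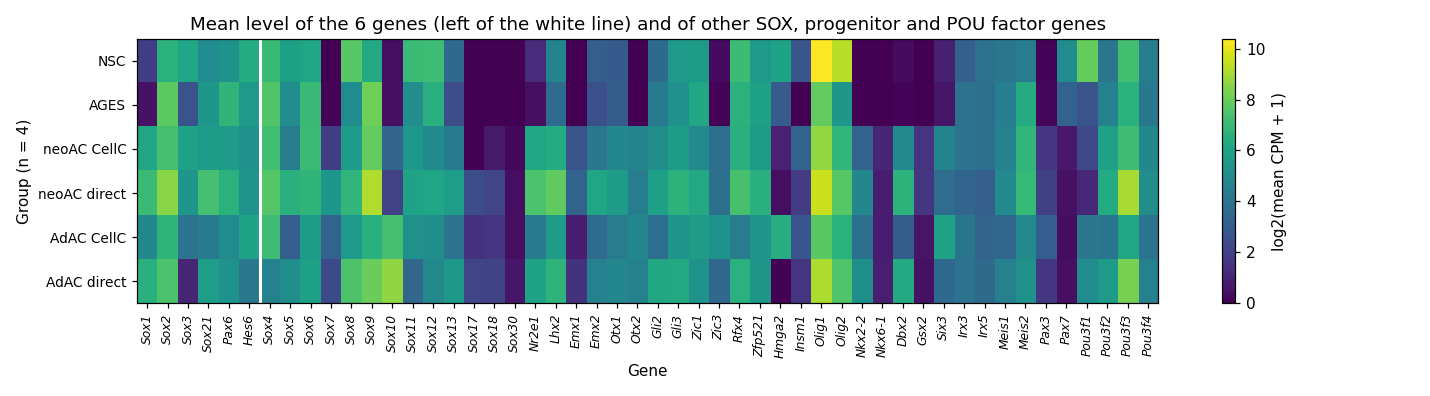
Mean level, as log2 of CPM plus 1, of the 6 genes and of genes of 3 lists (other SOX genes, progenitor factors, POU factors) in each group (n = 4). In the NSC and AGES rows Sox1, Nr2e1 and Otx2 are dark, and Olig1, Olig2 and Pou3f1 are bright in NSC.

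The POU factors are partners of SOX2 on DNA. Of 4 tested, Pou3f1 fell with BMP4 (log2 fold change -5.49, SE 0.24, adjusted p = 1.20e-15) and Pou3f3 fell less (log2 fold change -0.60, SE 0.11, adjusted p = 3.46e-05), while Pou3f2 was higher (log2 fold change 0.50, SE 0.14, adjusted p = 0.00246). In adult culture all 4 were lower, including Pou3f3 (log2 fold change -2.13, SE 0.12, adjusted p = 1.25e-14), Pou3f2 (log2 fold change -1.65, SE 0.14, adjusted p = 4.53e-11) and Pou3f1 (log2 fold change -0.93, SE 0.20, adjusted p = 0.000214). In neonatal culture 3 were lower, namely Pou3f3 (log2 fold change -1.88, SE 0.11, adjusted p = 2.68e-13), Pou3f2 (log2 fold change -0.43, SE 0.13, adjusted p = 0.00593) and Pou3f4 (log2 fold change -0.28, SE 0.12, adjusted p = 0.0477). Pou3f1 was higher (log2 fold change 1.64, SE 0.28, adjusted p = 1.91e-05), but its mean was under 5 CPM in both neonatal groups.

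Genes of the Notch and proneural circuit, in which Hes6 acts, moved in both directions. Of 6 proneural factors and Delta ligands tested, Neurod1 and Dll3 were lower with BMP4. In adult culture, where Hes6 rose, the Notch ligand Dll1 fell (log2 fold change -0.54, SE 0.17, adjusted p = 0.00551), as Dll1 did in neonatal culture (log2 fold change -0.89, SE 0.17, adjusted p = 5.03e-05). Of 8 HES and HEY repressors, 4 were higher (Hes3, Hes5, Hes7 and Hey1) and 2 lower (Hes1 and Hey2) with BMP4, with the Notch and BMP target Hey1 higher (log2 fold change 2.79, SE 0.17, adjusted p = 1.65e-13). The Notch target Hes5 fell in adult culture (log2 fold change -6.10, SE 0.34, adjusted p = 2.45e-13) and in neonatal culture (log2 fold change -9.31, SE 0.39, adjusted p = 3.76e-15), where 4 of 8 were lower each time, with 2 higher in adult culture (Hes1 and Hes3) and 1 in neonatal culture (Hes2), beside 39.2% and 31.3% of all genes lower. Heyl (log2 fold change -6.20, SE 0.26, adjusted p = 3.11e-16) and Hes1 (log2 fold change -2.76, SE 0.20, adjusted p = 1.96e-11) fell in neonatal culture, and Heyl (log2 fold change -2.54, SE 0.20, adjusted p = 1.63e-11) and Hey1 (log2 fold change -1.52, SE 0.16, adjusted p = 4.90e-09) in adult culture.

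Proliferation genes were the list that Sox3 and Hes6 moved with in AGES against NSC and in adult culture. Cdk1, the mitotic kinase, was at 254.0 ± 18.8 CPM in NSC, 6.67 ± 0.991 CPM in AGES, 97.7 ± 10.6 CPM in AdAC CellC and 0.776 ± 0.0874 CPM in AdAC direct. The pattern was not shared in full: AdAC CellC had a higher sum of proliferation genes than neoAC direct, at 1814 to 2172 against 668 to 1034 CPM, but a lower Sox3 (log2 fold change -1.52, SE 0.24, adjusted p = 5.36e-06). AGES and AdAC direct had sums of proliferation genes of 124 to 132 and 120 to 133 CPM, but Hes6 was 2.87-fold higher in AGES (log2 fold change 1.52, SE 0.15, adjusted p = 6.74e-10).

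**Figure D5:**
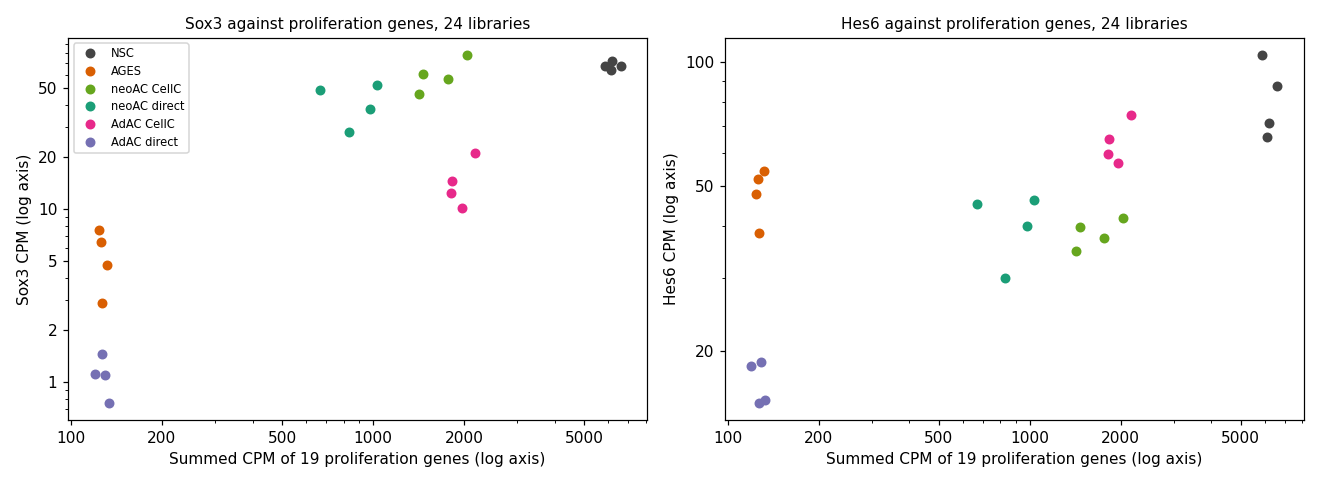
Sox3 (left) and Hes6 (right) in CPM against the summed CPM of 19 proliferation genes in 24 libraries, both axes logarithmic, with the group in colour. AGES and AdAC direct share the lowest sums, at 120 to 133 CPM, and NSC the highest, at 5871 to 6606 CPM, with both genes lowest in AdAC direct.

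Markers of cell types were counted in the same comparisons. Astrocyte markers summed to 907 to 1387 CPM in AdAC CellC, below NSC at 1985 to 2504 CPM. In AdAC direct they summed to 14472 to 15049 CPM. With BMP4, 6 of 10 astrocyte markers were higher and none lower, led by Gfap (log2 fold change 10.59, SE 0.21, adjusted p = 1.90e-22), while 9 of 10 were lower in adult culture, among them Slc1a2 (log2 fold change -6.93, SE 0.22, adjusted p = 6.03e-19), and 8 of 10 in neonatal culture. Of 6 neural stem cell markers, 3 were higher and 2 lower with BMP4, 4 higher and 1 lower in adult culture, where Nes rose (log2 fold change 4.60, SE 0.18, adjusted p = 2.86e-17), and 3 higher and 1 lower in neonatal culture. Neuron and neuroblast markers summed to between 7.38 and 11.0 CPM in NSC and to at most 346.8 CPM in any library, and Dcx, the neuroblast microtubule protein, was at 39.6 ± 6.20 CPM in neoAC CellC. Microglia markers summed to at most 54.9 CPM in any library.

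Genes with the pattern most like each of the 6 were ranked by Pearson's r of log2 CPM over the 24 libraries among 13027 protein-coding genes, as a description in which libraries of a group share their source. For Sox1 these were Alcam (r = 0.990), Zswim5, Nr2e1 (r = 0.987), Olfml2a and Tspan33. For Sox2 they were Stum (r = 0.974), Chst3, Sox9 (r = 0.952), Zfp36l1 and Hsdl2. Sox3 was most like Fgd1 (r = 0.968), Yeats4, Crmp1, Stil and Neurl1b. Sox21 was most like Acaa2 (r = 0.971), Hdhd2, Nr2f1, Pag1 and Pank1. Pax6 was most like 4833439L19Rik (r = 0.983), Sike1, Id3 (r = 0.960), Mocs2 and Epha5. Hes6 was most like the ribosomal protein gene Rpl15 (r = 0.973), Rps19, Ccm2, Rpl11 and Pdia5.

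Among themselves the 6 genes formed no single pattern over the 24 libraries. The highest r was 0.879 between Sox2 and Sox21, followed by 0.810 between Sox2 and Pax6 and 0.683 between Sox3 and Hes6. The lowest was -0.51, between Sox1 and Hes6. Sox1 and Sox3, both SOXB1 genes, had an r of 0.038.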

How the data were processed

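Levels of 6 genes were analysed in RNA-seq libraries of 24 samples, 4 in each of 6 groups given by the sample titles. The deposited values are raw counts per gene without normalization. The authors sequenced paired ends of stranded, poly(A)-selected libraries, and per the labels and the study's methods the reads were demultiplexed with bcl2fastq 2.20, aligned to GRCm38 with STAR 2.7.3a, keeping reads with up to 20 alignments, and counted on exons with featureCounts and Gencode vM12. The strand setting is not given in the sources used here. Symbols came from Gencode vM21, in which 49412 of 49671 identifiers (99.48%) were found.

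The test was that of edgeR 4.0.16 (R 4.3.3): filterByExpr, TMM scaling, a robust quasi-likelihood fit of all groups and two-sided contrasts, with Benjamini-Hochberg adjustment over 19691 genes and a threshold of 0.05. SE is the size of the log2 fold change over the root of its F statistic, and overlap means that the ranges of 2 groups of libraries cross. Named list genes are the 3 with the largest change per list that passed the test without overlap and reached 5 CPM, and some are not reported here. The 6 genes and all lists were chosen with earlier results of these data known. Totals lay between 27904126 and 37997368 counts, and levels of 3 counts cover counting error only. Alternatives were DESeq2 1.42.0 (test and size factors), library size only, other filters, a fold threshold, the compared groups alone, a replicate block and leaving out replicates. The test was checked on simulated data. Replicates were separate isolations or cultures.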

Additional observations from a re-analysis of the deposited data

Results flagged for a closer look

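Sox2 in the third NSC library, at 77.5 CPM, lay farther from its group than Dixon's criterion for 4 samples allows. It was 1 of 36 groups of 4 values examined for the 6 genes, and chance alone gives about 1 in 20. Without replicate 3 Sox2 was still higher in AGES than in NSC.

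The change in culture differed between neonatal and adult astrocytes by the interaction test for 5 genes. On the log2 scale, neonatal minus adult, the values were 0.83 for Sox1, -0.61 for Sox2, -3.20 for Sox3, -0.55 for Pax6 and -1.998 for Hes6. Sox3 and Hes6 rose in adult culture. In neonatal culture the Sox3 difference of 0.53 was lost under several settings, and that of Hes6, at -0.070, did not pass the test.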

How the results depend on the processing

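Over 1136 recomputed values of single genes, 1042 kept their direction and their side of the threshold, 64 lost and 15 gained their call, and another 15, not called either way, changed sign. No called value changed direction. Of 1078 recomputed list counts, 1005 stayed within 1.5 times the count reported. When called genes also had to change by more than 1 log2 unit, the number of the 6 genes called left this range in the comparisons named next. Brackets give the genes higher and lower among all 19691 tested at that threshold. The number fell to 3 for AGES against neoAC CellC (2724 and 5864). For neoAC CellC it fell to 2 against neoAC direct (3801 and 2628), 3 against AdAC CellC (3059 and 2813) and 2 against AdAC direct (3861 and 4332). For NSC it fell to 2 against neoAC CellC (3923 and 6491), 2 against AdAC CellC (2830 and 6199) and 3 against AdAC direct (4940 and 7555). For the interaction it fell to 2 (4792 and 4079). With at least 10 counts demanded in every library, which drops Sox1, 3 genes were called for NSC against AdAC CellC. There 4590 genes were higher and 4613 lower of 11977 tested. Scaling by library size only moved the median over all genes (log2 fold change) from 0.041 to 0.27 for neonatal culture and from -0.070 to -0.37 for AGES against neoAC CellC. Sox21 in AGES against neoAC CellC, not called above, passed with DESeq2 (-0.31, adjusted p = 0.037), with scaling by library size (-0.55, adjusted p = 0.000418), with at least 10 counts demanded in every library (-0.45, adjusted p = 0.00274) and in a fit of the compared groups alone (-0.29, adjusted p = 0.0418). Sox2 in NSC against AdAC CellC passed with the same scaling (-0.32, adjusted p = 0.0126), count demand (-0.39, adjusted p = 0.00314) and fit (-0.26, adjusted p = 0.0351), while Pax6 there was lost with the scaling (0.15, adjusted p = 0.117) and the count demand (0.081, adjusted p = 0.375). Sox3 in NSC against neoAC direct was lost without the filter on low counts (0.59, adjusted p = 0.0567). Same-numbered replicates did not deviate together, with correlations from -0.095 to 0.106 over the 7 study comparisons, so the numbers were not taken as pairs. With a replicate block Sox21 passed in AGES against neoAC CellC (-0.30, adjusted p = 0.0442), Sox2 passed in NSC against AdAC CellC (-0.27, adjusted p = 0.0155), where Pax6 (0.21, adjusted p = 0.0665) and Hes6 (0.26, adjusted p = 0.104) were lost, and no other call of the 6 genes changed.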
